A study of Oryctolagus cuniculus with 16 samples.

Results

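The cathepsins are the proteases of the lysosome, and 8 of them that macrophages are rich in were followed in the femoral head of a rabbit model of Perthes disease. The genes were selected by symbol as CTSA, CTSB, CTSC, CTSD, CTSH, CTSL, CTSS and CTSZ, and 7 of the 8 were found by symbol among the 20255 genes listed in the gene count table. CTSL was not analysed here under its own symbol. All of the 7 genes passed the filter on low counts and were among the 15305 genes tested.

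Femoral heads of 5 operated rabbits (the Perthes group) and of 3 control rabbits had been profiled by total RNA-seq. The model was produced by surgery on 8-week-old rabbits, an operation that interrupts the arterial supply of the growing femoral head by ligating its neck and dividing the ligamentum teres. The labels place the 2 groups under genotype, as Perthes' disease and WT, although the model is surgical and the methods describe the animals as bought wild-type rabbits. Whether the controls had a sham operation, the interval between surgery and collection, and the strain and sex of the animals were not given in the sources used here. In the main test, p-values set the group difference against the spread of these 8 libraries within their groups. One control label repeats a replicate number, and that library was followed as control replicate 3 by its own sample code.

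The libraries held between 26757077 and 29461483 expected counts. The 7 genes had whole-number counts in all libraries, between 927 and 163370 per gene and library, so counting error was small beside the difference between animals. Perthes replicate 4 stood apart from the other libraries on the second principal component (-78.4, against -7.51 to 27.5 elsewhere). The summed level of 7 chondrocyte markers, which include COL2A1 and ACAN, was 151313 CPM (the depth-normalised count, with library totals scaled by TMM, a trimmed mean of log ratios between libraries) in Perthes replicate 4 and 38934 to 81178 CPM in the other 7 libraries. Its summed level of 11 macrophage markers was 816 CPM, below the controls at 852 to 1457 CPM and the other Perthes libraries at 1732 to 3078 CPM. Counts of calls that changed without it are therefore given both ways. The femoral head is a mixture of bone, cartilage and marrow, and fewer cells of a type cannot be told apart from less RNA per cell in these bulk samples.

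Cathepsins are made as inactive proenzymes, tagged with mannose 6-phosphate in the Golgi, carried to endosomes and lysosomes by receptors, and activated there by the acid pH. Most are cysteine proteases of the papain family, whereas CTSD is an aspartic protease and CTSA a serine carboxypeptidase. Macrophages use them to degrade ingested debris and to process antigen, and osteoclasts secrete CTSK to degrade bone collagen. Cystatins inhibit the cysteine cathepsins.

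All of the 7 cathepsins were higher in Perthes disease (edgeR quasi-likelihood test, Benjamini-Hochberg adjusted over all tested genes), with log2 fold changes from 1.27 for CTSZ to 2.74 for CTSS. Of all tested genes, 6.21% were called higher and 8.86% lower. Every one of the 7 log2 fold changes was also above 1, a call made for 4.21% of genes. The median log2 fold change of the 7 cathepsins was 2.25, beside 0.02 over all tested genes. Together the 7 genes took 0.738% ± 0.365 (SD, n = 5) of the scaled counts in the Perthes group and 0.142% ± 0.0205 (SD, n = 3) in the control group, with every Perthes library above every control library.

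The cysteine endopeptidases CTSB and CTSS had the largest log2 fold changes of the 7. CTSB, which cleaves proteins internally and also trims dipeptides from their ends, stood at 3771, 2427, 3546, 745 and 5561 CPM in Perthes replicates 1 to 5 and at 580, 488 and 509 CPM in control replicates 1 to 3. The groups did not overlap, although Perthes replicate 4 lay much nearer to the controls than the others did. The means were 3210 ± 1778 CPM (SD, n = 5) and 526 ± 47.8 CPM (SD, n = 3). On the log2 scale the difference was 2.61 ± 0.58 (SE), with an edgeR adjusted p of 0.0209. CTSS, which remains active at neutral pH and removes the invariant chain from class II molecules, measured 510, 220, 304, 60.2 and 371 CPM in the Perthes libraries and 59.9, 32.7 and 38.9 CPM in the controls. Perthes replicate 4 and control replicate 1 were almost level for this gene, and the remaining Perthes libraries were all far higher. The log2 fold change of CTSS was 2.74 ± 0.62 (SE), with an edgeR adjusted p of 0.0218.

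The table also held 3 genes without a CTS symbol that it described as cathepsin L1, another endopeptidase of the papain family, and these were looked at after their values had been seen. Which of them is the rabbit CTSL was not settled, and another annotation field names the product of LOC100008830 as Cathepsin V. LOC100008830 measured 903, 356, 562, 163 and 626 CPM in the Perthes libraries and 47.8, 34.9 and 53.8 CPM in the controls. Even Perthes replicate 4 was well above the highest control. Its log2 fold change of 3.52 ± 0.55 (SE; edgeR adjusted p = 0.012) was larger than that of any of the 7 genes selected by symbol. Leaving out control replicate 1 or control replicate 2 ended this call (edgeR adjusted p of 0.0512 and 0.0519). LOC100344030 was nearly silent, with 0, 2, 3, 0 and 0 counts in the Perthes libraries and 23, 24 and 13 counts in the controls. The latter gene was called lower (edgeR adjusted p = 0.0154), and with at most 3 counts in any Perthes library no fold is given. LOC100347623 had at most 9 counts in any library and was not tested. Because these 3 genes carry the same description, how reads were divided between such copies by the authors' counting is uncertain.

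**Figure D1:**
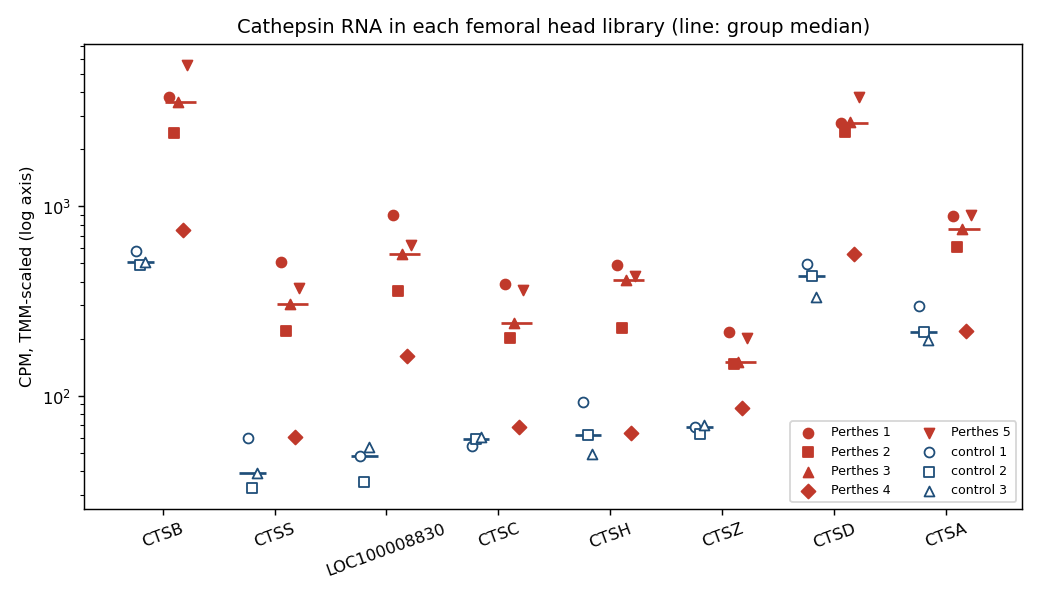
CPM (TMM-scaled, log axis) of the 7 cathepsins and of LOC100008830, described in the table as cathepsin L1, in each library, with filled symbols for the 5 Perthes libraries, open symbols for the 3 controls, a different marker for each replicate and a line at the group median. Perthes replicate 4 (filled diamond) is the lowest Perthes library for every gene shown, and falls within the control range for CTSA and CTSH.

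The cysteine exopeptidases CTSC, CTSH and CTSZ, which remove residues from the ends of proteins, all rose. CTSC is the dipeptidyl peptidase that activates the serine proteases of granulocytes and cytotoxic lymphocytes, and it measured 389, 203, 243, 67.9 and 362 CPM in the Perthes libraries and 54.3, 59.1 and 60.8 CPM in the controls. The control libraries were close together and every Perthes library lay above them. The log2 fold change of CTSC was 2.12 ± 0.50 (SE; edgeR adjusted p = 0.025). The aminopeptidase CTSH measured 488, 228, 407, 63.7 and 429 CPM in the Perthes libraries and 93.0, 61.8 and 49.0 CPM in the controls. The groups overlapped because Perthes replicate 4 was below control replicate 1, and the log2 fold change was 2.25 ± 0.60 (SE; edgeR adjusted p = 0.0375). CTSZ, a carboxypeptidase, measured 218, 148, 151, 86.4 and 202 CPM in the Perthes libraries and 68.0, 62.4 and 70.4 CPM in the controls. CTSZ had the smallest fold change among the 7, at a log2 value of 1.27 ± 0.29 (SE; edgeR adjusted p = 0.0228), and the groups did not overlap.

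The aspartic endopeptidase CTSD, a main protease of lysosomal protein breakdown, measured 2741, 2479, 2788, 563 and 3758 CPM in the Perthes libraries and 497, 426 and 333 CPM in the controls, with no overlap. Its log2 fold change was 2.56 ± 0.55 (SE), and its edgeR adjusted p of 0.0192 was the lowest among the 7 genes. CTSA, the serine carboxypeptidase that also protects beta-galactosidase and neuraminidase in a lysosomal complex, measured 892, 606, 760, 219 and 894 CPM in the Perthes libraries. Its control values were 298, 217 and 197 CPM, so that Perthes replicate 4 fell between control replicates 1 and 2. CTSA had a log2 fold change of 1.51 ± 0.44 (SE) and was nearest to the threshold, with an edgeR adjusted p of 0.048.

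Over the 7 genes, the groups did not overlap for 5, the exceptions being CTSA and CTSH, whereas 11.2% of all tested genes had every Perthes library above every control. For each of those 5 genes an exact two-sided permutation test of log2 CPM gave p = 0.0357. That is the smallest value this test can give over the 56 divisions of 8 libraries into 5 and 3. Groups that do not overlap always reach it, so it adds nothing to their separation. For CTSA and CTSH the permutation test gave p = 0.0714. Perthes replicate 4 was the lowest Perthes library for all 7 genes. Perthes replicate 1 was the highest library for 4 genes and Perthes replicate 5 for the other 3. The ratio of the highest to the lowest Perthes library ranged from 2.52 for CTSZ to 8.47 for CTSS, and within the controls from 1.12 for CTSC to 1.90 for CTSH. The coefficient of variation was 32.3% to 57.3% over the 5 Perthes libraries and 5.81% to 33.3% over the 3 controls, and was larger in the Perthes group for each of the 7 genes.

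Without Perthes replicate 4, the 7 cathepsins remained higher, with log2 fold changes of 1.42 to 3.00 and edgeR adjusted p-values of 0.00429 to 0.00766. That fit called 8.36% of genes higher. The groups then separated for all 7 genes, and for 16.3% of all genes. The calls were sensitive to the small control group, since leaving out any one of the 3 controls ended all 7 of them (adjusted p of 0.0519 to 0.155), and leaving out Perthes replicate 3 or Perthes replicate 5 left only CTSB and CTSD called. Over all genes, 73, 0 and 695 were called higher without control replicates 1, 2 and 3 in turn, and 385 and 351 without Perthes replicates 3 and 5, beside 951 with all libraries. In DESeq2, requiring both an adjusted p below 1e-05 and a log2 fold change above 2, CTSB (adjusted p = 5.68e-06) and CTSD (adjusted p = 4.04e-06) passed and CTSS did not (adjusted p = 1.12e-05). These thresholds were passed upward by 0.686% of genes.

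The other cathepsins gave a comparison for the same protease family. CTSK, the collagen-degrading protease of osteoclasts, measured 2546, 2350, 2280, 992 and 3773 CPM in the Perthes libraries and 404, 783 and 831 CPM in the controls. The groups did not overlap, and the log2 fold change was 1.83 ± 0.44 (SE; edgeR adjusted p = 0.0272). CTSF, a cysteine protease of the papain family, rose by 0.87 ± 0.21 (SE) on the log2 scale (edgeR adjusted p = 0.0286). Its mean was 63.5 ± 8.25 CPM (SD, n = 5) in the Perthes group against a control mean of 34.7 ± 9.90 CPM (SD, n = 3). For CTSF, Perthes replicate 4 at 58.4 CPM was not the lowest library of its group. CTSE, the second aspartic cathepsin, had 152 ± 69.6 CPM (SD, n = 5) in the Perthes group and 210 ± 105 CPM (SD, n = 3) in the controls, and did not pass the test (edgeR adjusted p = 0.512). CTSO did not pass either (log2 fold change 0.33 ± 0.26 SE; edgeR adjusted p = 0.407). CTSG and CTSW, and CTSV under its own symbol, were not analysed here. CTSK and CTSS are neighbouring genes in the RefSeq annotation of mOryCun1.1, yet their ratio within a library was not constant: the log2 ratio of CTSK to CTSS ran from 2.32 to 4.04 in the Perthes group and from 2.75 to 4.58 in the controls.

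The composition of the cathepsin pool was examined because the share of each gene in the summed CPM of the 7 does not depend on how libraries are scaled. The shares also depend on transcript length, and are compared here only between libraries. CTSA took 9.90%, 9.60%, 9.27%, 12.2% and 7.72% of the sum in the Perthes libraries and 18.1%, 16.1% and 15.7% in the controls, so its share was lower in every Perthes library. CTSB took 42.6% ± 3.51 (SD, n = 5) in the Perthes group and 37.3% ± 2.80 (SD, n = 3) in the controls, and the ranges overlapped. The shares of CTSC, CTSD, CTSH, CTSS and CTSZ overlapped between the groups as well. When each gene was instead set against the mean log2 CPM of the other 6, CTSB was higher in every Perthes library (log2 ratios of 2.63 to 3.25, against 2.27 to 2.5 in the controls) and CTSA was lower in every one (0.18 to 0.59, against 0.90 to 1.15). CTSZ was lower than in any control in Perthes replicates 1, 2, 3 and 5, at log2 ratios of -2.37 to -1.97, but not in Perthes replicate 4, at -0.97.

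**Figure D2:**
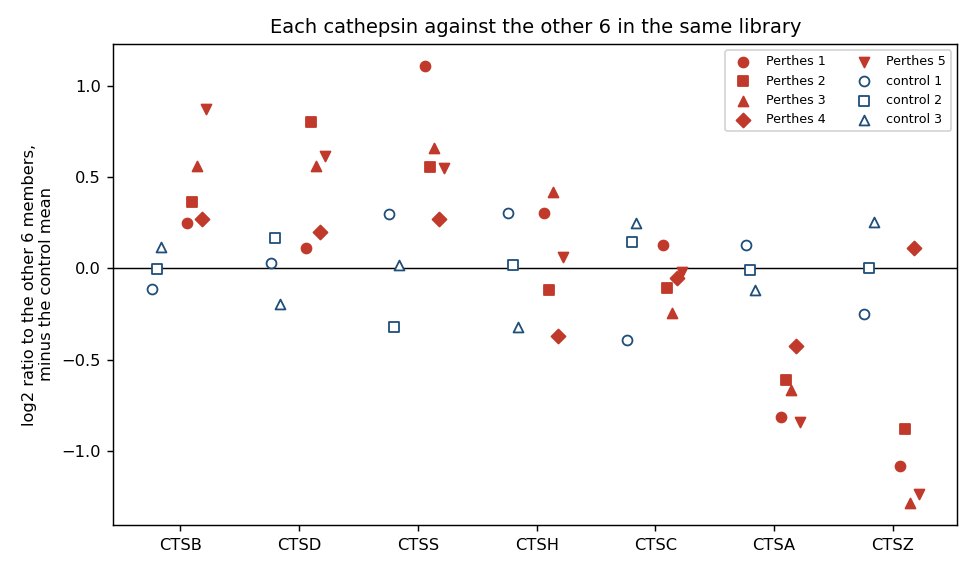
Log2 ratio of each cathepsin to the mean log2 CPM of the other 6 in the same library, minus the control mean of that ratio, with filled symbols for the 5 Perthes libraries and open symbols for the 3 controls. CTSB lies above all controls and CTSA below all controls in each Perthes library, whereas the groups overlap for the other 5 genes.

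The similarity of patterns was measured as the root mean square difference between log2 CPM profiles, each centred on its own mean over the 8 libraries, which share depth and scaling. CTSB and CTSD were each the nearest of 15304 other tested genes to the other, at 0.20 log2 units. The largest difference between 2 of the cathepsins was that of CTSZ from CTSS, at 0.82 log2 units. CTSZ was nearer to CTSA, at 0.32 log2 units. The genes nearest to CTSA were SLC15A3, OSTM1 and DHRS7, those nearest to CTSC were SLC44A4, CD68 and RNF128, and those nearest to CTSZ were LAMP1, SLC31A2 and ARHGAP24. After each other, the genes nearest to both CTSB and CTSD were RAB42 and MLANA. CTSH was closest to GUSB, ADAP2 and MLANA, and CTSS to MLANA, LPXN and LIPA.

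Genes that sort and activate procathepsins changed in part. Of 10 tested genes of this kind, 3 rose and 0 fell, with a median log2 fold change of 0.79. LGMN, the asparaginyl endopeptidase that cleaves several procathepsins to their mature forms, measured 702, 491, 723, 421 and 950 CPM in the Perthes libraries and 132, 154 and 166 CPM in the controls. All Perthes libraries, replicate 4 included, were well above the controls, and the log2 fold change was 2.13 ± 0.30 (SE; edgeR adjusted p = 0.0118). IGF2R, the larger mannose 6-phosphate receptor, rose by a log2 fold change of 1.55 ± 0.30 (SE; edgeR adjusted p = 0.015), and PSAP, the saposin precursor, by 1.74 ± 0.42 (SE; edgeR adjusted p = 0.0261). The smaller receptor M6PR had a log2 fold change of 0.53 and did not pass (edgeR adjusted p = 0.175). The sorting receptor SORL1 had the most negative value, -1.21 ± 0.36 (SE; edgeR adjusted p = 0.0517), followed by the adaptor GGA3 at -0.70 (edgeR adjusted p = 0.0687), and SORT1 was at -0.09. Without Perthes replicate 4, 5 of the 10 rose, GNPTAB and NAGPA of the mannose 6-phosphate pathway being added.

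Of the enzymes held with CTSA in its complex, only beta-galactosidase GLB1 passed the test, at 381, 227, 388, 181 and 401 CPM in the Perthes libraries against 117, 105 and 124 CPM in the controls. The groups did not overlap for GLB1, and its log2 fold change was 1.45 ± 0.30 (SE; edgeR adjusted p = 0.0177). The neuraminidase NEU1 was at a log2 fold change of 0.43 ± 0.28 (SE; edgeR adjusted p = 0.325) and the sulfatase GALNS at 0.01 ± 0.29 (SE; edgeR adjusted p = 0.978).

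The 5 cystatins tested did not move together, with 1 higher, 1 lower and a median log2 fold change of -1.07. The cytosolic inhibitor CSTB measured 111, 48.2, 109, 56.1 and 89.0 CPM in the Perthes libraries and 18.9, 25.5 and 33.3 CPM in the controls, a log2 fold change of 1.67 ± 0.34 (SE; edgeR adjusted p = 0.0166). Its relative CSTA was lower, at 0.460 ± 0.401 CPM (SD, n = 5) in the Perthes group and 4.76 ± 2.29 CPM (SD, n = 3) in the controls (log2 fold change -3.37 ± 0.72 SE; edgeR adjusted p = 0.0186). CST3, or cystatin C, the secreted inhibitor, measured 1293 ± 346 CPM (SD, n = 5) and 1081 ± 332 CPM (SD, n = 3) and did not pass the test (edgeR adjusted p = 0.588). CST7 (log2 fold change -1.22; edgeR adjusted p = 0.0766) and CST6 (log2 fold change -1.07; edgeR adjusted p = 0.0741) did not pass either.

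Among 8 MiT/TFE transcription factors and their regulators, a group known for control of lysosomal genes, 1 rose and 0 fell, with a median log2 fold change of 0.25. MITF measured 91.9, 33.8, 51.7, 17.7 and 79.2 CPM in the Perthes libraries and 7.68, 14.2 and 17.9 CPM in the controls. Perthes replicate 4 was just below control replicate 3, and the log2 fold change of MITF was 2.05 ± 0.54 (SE; edgeR adjusted p = 0.0363). TFEB (log2 fold change -0.05; edgeR adjusted p = 0.895), TFE3 (0.37; adjusted p = 0.221), FNIP1 (0.34; adjusted p = 0.233) and FLCN (-0.04; adjusted p = 0.941) did not pass.

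**Figure D3:**
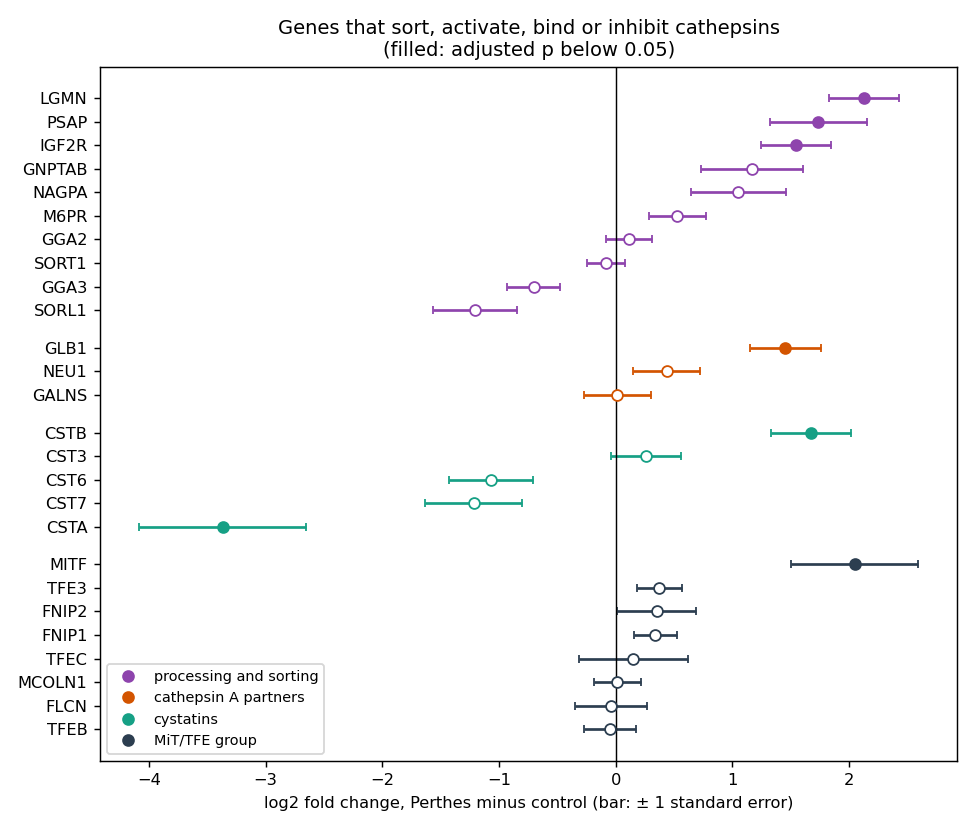
Log2 fold change (Perthes minus control, x axis) with ± 1 standard error of the genes that sort, activate, bind or inhibit cathepsins and of the MiT/TFE group, in edgeR with TMM scaling. Filled points passed an adjusted p of 0.05: LGMN, PSAP, IGF2R, GLB1, CSTB and MITF to the right of 0 and CSTA to the left.

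Of 24 other lysosomal genes tested, 11 rose and 0 fell, with a median log2 fold change of 0.94. The cholesterol exporter NPC1 (log2 fold change 1.17 ± 0.22 SE; edgeR adjusted p = 0.0138), the membrane protein CD63 (1.40 ± 0.27 SE; adjusted p = 0.0144) and the hexosaminidase subunit HEXA (1.54 ± 0.31 SE; adjusted p = 0.0165) had the lowest adjusted p-values. ARSB was at -0.33 (edgeR adjusted p = 0.424) and GAA at -0.03 (edgeR adjusted p = 0.964). Without Perthes replicate 4, 17 of the 24 were called higher. For antigen presentation by class II molecules, to which CTSS contributes, 0 of 3 tested genes were called, with CD74, the invariant chain, at a log2 fold change of 0.45 (edgeR adjusted p = 0.394), CIITA at -0.87 (edgeR adjusted p = 0.0945) and RFX5 at -0.37 (edgeR adjusted p = 0.172). None of the granule protease substrates of CTSC could be tested.

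Markers of the cells that carry cathepsins moved as well. Of 11 tested macrophage markers, 4 rose, 1 fell and 6 did not pass, with a median log2 fold change of 1.07, and none was at 0 in all libraries. CD68, a lysosomal glycoprotein, rose by 2.02 ± 0.41 (SE; edgeR adjusted p = 0.0165), the growth factor receptor CSF1R by 1.07 ± 0.27 (SE; edgeR adjusted p = 0.0326) and CD14 by 2.37 ± 0.65 (SE; edgeR adjusted p = 0.0397) on the log2 scale, whereas C1QC, a subunit of complement C1q, fell by 2.09 ± 0.36 (SE; edgeR adjusted p = 0.0133). ITGAM, ADGRE1, C1QA and C1QB were not analysed here. Summed macrophage markers ranged from 816 to 3078 CPM in the Perthes group and from 852 to 1457 CPM in the controls. Of 9 osteoclast markers, CTSK and DCSTAMP rose and 0 fell, with a median of 1.07, and ACP5 stood at a log2 fold change of 0.36 (edgeR adjusted p = 0.592). Their sum ranged from 3124 to 6148 CPM in the Perthes group and from 1818 to 2858 CPM in the controls. CTSK, itself a cathepsin, supplied 992 to 3773 CPM of this sum in the Perthes group and 404 to 831 CPM in the controls. MMP9, another abundant marker of the list, overlapped between the groups, at 483 to 1390 CPM and 605 to 1146 CPM. The sum was not taken without CTSK. Without Perthes replicate 4, 6 of the 11 macrophage markers were called higher, AIF1 and LAPTM5 being added, and 4 of the 9 osteoclast markers, with ATP6V0D2 and TNFRSF11A added.

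Neutrophil markers, all 8 with negative log2 fold changes and 4 of them called lower, summed to 28.2 to 1810 CPM in the Perthes group and to 6770 to 22406 CPM in the controls. Erythroid markers were called lower in 3 of 7, and summed to 647 to 2365 CPM in the Perthes group and to 4682 to 5290 CPM in the controls. Of 5 B cell markers MS4A1 was called lower, and of 6 T and NK cell markers NKG7. Fibroblast markers COL3A1 and THY1 were called higher among 9, and no endothelial, osteoblast, chondrocyte, adipocyte or skeletal muscle marker was called in either direction. Without Perthes replicate 4, 0 of the 7 erythroid markers were called, COL3A1 was no longer called, and the endothelial marker VWF was called higher. The part of these cell type differences in the cathepsin result was not tested beyond the scaling to marker genes that follows.

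To compare cathepsin RNA per unit of macrophage marker RNA, the fit was repeated with each library scaled to the mean log2 CPM of the 11 macrophage markers, which lowered the median log2 fold change of all genes to -0.66. All 7 cathepsins kept a positive log2 fold change, with a median of 1.24, but 0 of 7 passed the test in edgeR, with 4 at an unadjusted p under 0.05. This fit called 0.536% of all genes higher. CTSS was closest, at 1.71 ± 0.55 (SE; adjusted p = 0.0511), followed by CTSD at 1.58 ± 0.62 (SE; adjusted p = 0.125) and CTSB at 1.58 ± 0.63 (SE; adjusted p = 0.131). CTSZ at 0.37 ± 0.50 (SE; adjusted p = 0.644) and CTSA at 0.57 ± 0.54 (SE; adjusted p = 0.518) had the smallest values. LOC100008830 passed under this scaling, at 2.48 ± 0.58 (SE; edgeR adjusted p = 0.0103), and CTSK did not (0.83 ± 0.62 SE; edgeR adjusted p = 0.426). Without control replicate 1 or control replicate 2, LOC100008830 no longer passed under it (edgeR adjusted p of 0.061 and 0.0962). Leaving C1QC, the marker that fell, out of the scale gave 0 of 7 calls as well, with 1 at an unadjusted p under 0.05. CTSS was then at 1.40 ± 0.60 (SE; edgeR adjusted p = 0.125), CTSA at 0.27 ± 0.61 (SE; edgeR adjusted p = 0.726) and CTSZ at 0.09 ± 0.57 (SE; edgeR adjusted p = 0.903).

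**Figure D4:**
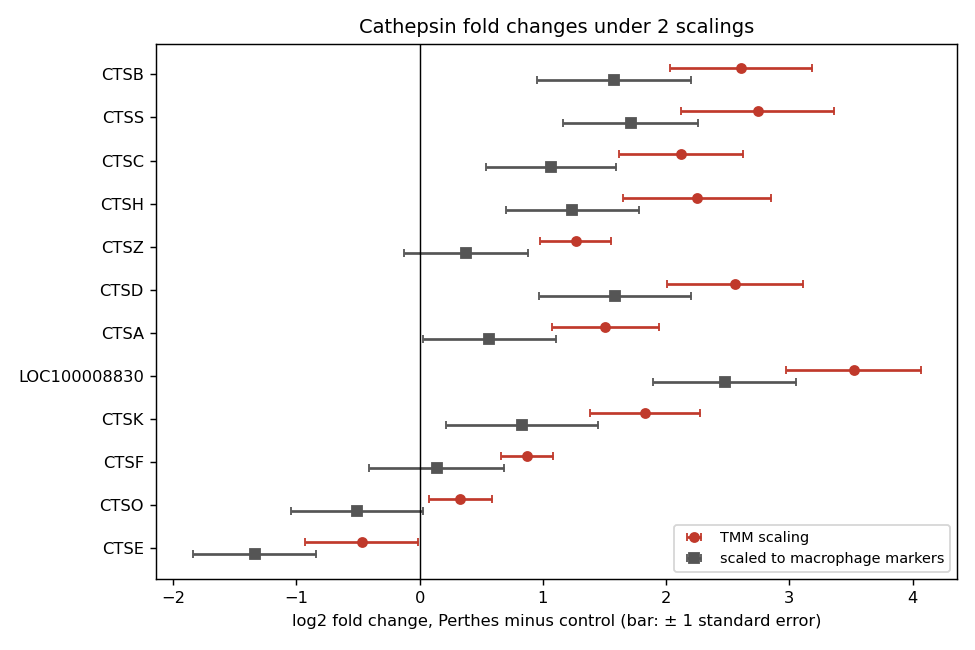
Log2 fold change (Perthes minus control, x axis) with ± 1 standard error for the 7 cathepsins, LOC100008830 and the other cathepsins tested, with circles for TMM scaling and squares for scaling to 11 macrophage markers. All 7 cathepsins stay to the right of 0 under both scalings, with smaller values under the second, and CTSO moves from 0.33 to -0.51 without passing the test under either.

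The result of the scaling to macrophage markers depended on Perthes replicate 4. Without this library, 5 of the 7 cathepsins, namely CTSB, CTSC, CTSD, CTSH and CTSS, passed (edgeR adjusted p of 0.00205 to 0.0153), against 1.45% of all genes called higher, while CTSA (0.133) and CTSZ (0.47) did not. In single libraries, the log2 ratio of each cathepsin to the macrophage marker mean was higher in every Perthes library than in every control for 6 of 7 genes, all except CTSZ, and for 1.28% of all genes. CTSB, for example, had log2 ratios of 4.31, 4.63, 4.74, 3.92 and 5.19 in the Perthes libraries and 2.78, 3.06 and 3.24 in the controls. Perthes replicate 4 was the lowest of its group and still above the highest control. The marker mean used here included C1QC, at a mean of 40.2 CPM in the Perthes group and 171 CPM in the controls. This difference raised the Perthes ratios relative to those of the controls. Neither the single-library ratios nor the fit without Perthes replicate 4 was repeated without C1QC. Among the controls, LAPTM5, TYROBP, FCER1G and CD14 were highest in control replicate 1. LAPTM5 was at 544 CPM there, against 251 and 237 CPM in control replicates 2 and 3. That library also had the highest summed neutrophil markers (22406 CPM). CD68, CSF1R and MSR1 were not highest there. Whether RNA of cells other than macrophages, such as neutrophils, entered the scale was not tested. The macrophage scale was not repeated without LAPTM5, TYROBP, FCER1G and CD14.

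**Figure D5:**
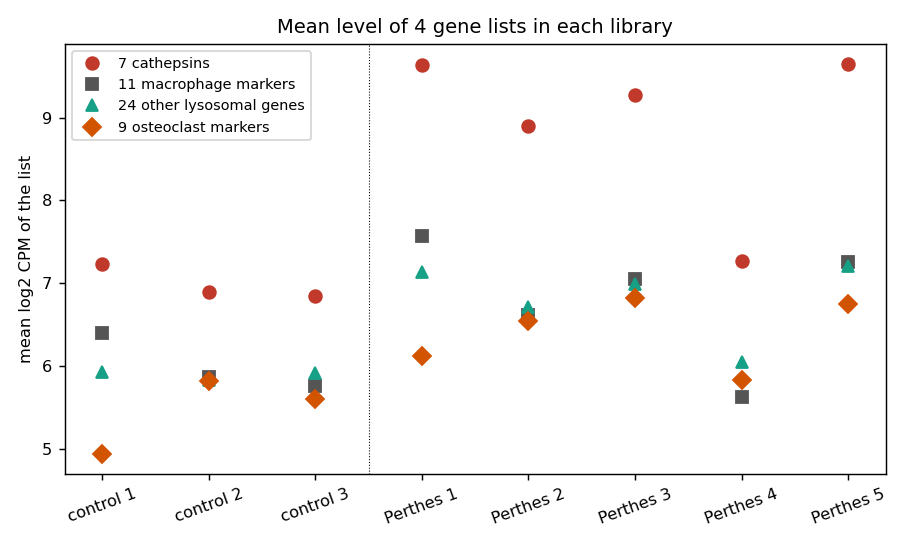
Mean log2 CPM (y axis) of 7 cathepsins, 11 macrophage markers, 24 other lysosomal genes and 9 osteoclast markers in each library (x axis, controls to the left of the dotted line), with one point per list and library. The cathepsin mean is 6.85 to 7.24 in the controls and 7.27 in Perthes replicate 4, and lies between 8.89 and 9.65 in the other 4 Perthes libraries.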

How the data were processed

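Total RNA of femoral heads from 5 operated (Perthes) and 3 control rabbits had been depleted of ribosomal RNA and sequenced from stranded libraries. The authors mapped reads with HISAT2 2.0.4 and obtained gene levels from RSEM 1.1.17 and from HTSeq 1.99.2, and the deposited gene table holds expected counts, of which 10.0% to 10.7% per library were not whole. Expected counts were rounded to whole numbers and tested with edgeR 4.0.16 in R 4.3.3 (TMM scaling, filterByExpr, quasi-likelihood F-test, call at an adjusted p below 0.05), after the script had been tested on simulated data. Standard errors were derived from the F statistic, and a prior count of 2 entered log2 CPM. The alternatives used DESeq2 1.42.0 and limma 3.58.1. A further 8 count columns, each equal to a column that was used, were left out, as were the columns of the authors' own comparisons and the small RNA libraries.

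The cathepsins and gene lists were chosen with earlier results of these data known. All cathepsins, and from every other list the 3 genes of lowest adjusted p in each direction, were named, together with the 3 genes nearest in pattern to each cathepsin. Other genes named in the text, the 3 described as cathepsin L1, and the scalings to osteoclast markers and to other lysosomal genes were chosen after the data had been seen. The replicate number that labels give to control replicate 3 repeats that of control replicate 2, and its sample code was used. The RefSeq annotation of mOryCun1.1 served only for neighbouring genes.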

Additional observations from a re-analysis of the deposited data

Results flagged for a closer look

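The shares of CTSS and CTSZ in the summed CPM of the 7 cathepsins each had 1 Perthes library far from the other 4. CTSS took 5.66% of the sum in Perthes replicate 1 and 3.21% to 3.71% in the other Perthes libraries. CTSZ took 4.79% in Perthes replicate 4 and 1.75% to 2.42% in the other Perthes libraries, and the controls ranged from 4.13% to 5.59%. In both cases the gap to the nearest library, divided by the range of the group, was above 0.71, the Dixon critical value for 5 libraries. Of 20 such tests 2 passed, and chance alone passes about 1 in 20. The 20 tests were not independent, since they used the same libraries and the shares are parts of the same sum. The 3 control libraries were not tested in this way.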

How the results depend on the processing

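All 7 cathepsins kept positive log2 fold changes under every alternative run, and the calls did not. In edgeR, leaving out 1 library gave 0 to 7 calls, with 5 called without Perthes replicate 1, 6 without Perthes replicate 2, 2 without Perthes replicate 3 or Perthes replicate 5, 7 without Perthes replicate 4 and 0 without any one control, all 7 having an unadjusted p under 0.05 each time. DESeq2 called 7, library totals 6 (CTSA adjusted p = 0.0619), no low-count filter 6 (CTSA 0.051) and limma-voom 5 (CTSA 0.0584, CTSH 0.0524). A glmTreat test against a log2 fold change of 1 called 0, with 6 at an unadjusted p under 0.05. That test called 0 of 15305 genes in either direction, with 557 higher at an unadjusted p under 0.05. Limma-voom called 926 of 15311 genes higher, and the fit without a low-count filter 854 of 20249. The labels do not say that replicate numbers pair the animals. The mean correlation of deviations was -0.13 over 3 same-numbered pairs and 0.03 over 12 others, and 3 pairs are too few to exclude pairing. Replicate numbers 4 and 5 occur only in the Perthes group. In any fit with the replicate block, the group difference therefore rested on replicates 1 to 3 of each group, without Perthes replicates 4 and 5. With the replicate block edgeR called 0 of 7 cathepsins (7 unadjusted), 0 of 15305 genes higher and 0 lower (1504 and 1648 unadjusted). Scaled to macrophage markers, the count rose from 0 to 5 with the replicate block. It ranged from 0 to 5 when 1 library was left out (5 without Perthes replicate 4 alone). The count was 3 when scaled to osteoclast markers, CTSK included (CTSB, CTSD, CTSS), and 4 when scaled to other lysosomal genes (CTSB, CTSC, CTSD, CTSS). It stayed at 0 without the C1q marker, where the number at an unadjusted p under 0.05 fell from 4 to 1. Over all 15305 genes, 82 were called higher and 1130 lower with macrophage markers as the scale, 77 and 1657 without the C1q marker, 247 and 7479 with the replicate block, 215 and 5740 with osteoclast markers and 200 and 5410 with other lysosomal genes.

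Over all genes, 951 higher and 1356 lower calls became 1720 and 1916 in DESeq2, and 678 and 1705 with library totals, where 28.5% of calls were higher against 41.2%. Leaving out 1 library gave 0 to 1267 higher and 0 to 1628 lower calls, both 0 without control replicate 2.

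Directions turned only for genes not called in either fit. With the replicate block SORT1 was at 0.026, TFEB 0.013, FLCN 0.142 and GAA 0.13 (log2), with limma-voom FLCN 0.009 and GAA 0.012, and GALNS was -0.065 with library totals and -0.004 with at least 10 counts in every library. When 1 library was left out the log2 fold change ran from -0.73 to 0.007 for CTSE, -0.175 to 0.31 for GALNS, -0.248 to 0.227 for TFEB, -0.311 to 0.311 for FLCN and -0.26 to 0.392 for GAA, the lowest without control replicate 3 and the highest without control replicate 1 for each. The causes were not tested.

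Leaving out 1 library moved the difference in share (Perthes minus control, percentage points) to between -7.48 and -6.15 for CTSA, 3.93 and 6.88 for CTSB, -1.13 and -0.36 for CTSC, 2.60 and 5.18 for CTSD, -0.87 and 0.0051 for CTSH, 0.38 and 1.12 for CTSS, and -2.70 and -1.75 for CTSZ.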
